A study of Mus musculus with 3 samples.

Results

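The genes described here belong to the killing programme of natural killer (NK) cells and cytotoxic T cells in mouse lung. They were 10 of the 23183 genes with a value, chosen by symbol: Gzma, Gzmb, Prf1, Nkg7, Klrd1, Klrk1, Klrb1c, Ncr1, Ccl5 and Eomes. All 10 had a value in every library, and all 10 passed the minimum level of 1 FPKM in each comparison (FPKM, a level in fragments adjusted for transcript length and library size).

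NK cells and CD8 T cells kill infected or altered cells by releasing granules. The pore-forming protein perforin (Prf1) lets granzymes, which are serine proteases, into the target cell, and receptors on the NK cell surface weigh activating against inhibitory signals before the granules are released. The lung holds a resident and circulating pool of such cells, which respond early to infection and tissue injury. Eomes is one of the transcription factors under which they mature.

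The RNA came from homogenised lungs of female mice of the BALB/c strain, with 1 library for each of 3 groups. The OVA+PM10 group received particulate matter (PM10, a certified reference dust) and was also sensitised to and challenged with ovalbumin (OVA), an egg-white protein used to provoke allergic airway disease. For this, 20 µg of OVA with aluminium hydroxide was injected into the abdomen. The first injection was on day 0 or day 1, on which the labels differ, and the last on day 14. OVA was given into the nose on days 21, 22 and 23, the last of them 2 days before the lungs were taken. The PM10 group received the particles alone, into the nose, 4 times over 2 weeks, at a dose of 100 or 200 µg. The same doses, number of administrations and weeks apply to the particles of the OVA+PM10 group. For the control group no agent or vehicle is named. Labels give the age as 10 weeks in one field and as 5 to 6 weeks in another, and 5 mice per group; neither the dose sequenced nor the number of mice behind a library is stated. An OVA group without particles was not analysed here. With 1 library per group, the spread between mice is unknown, so no test was possible, and every difference below is one between these libraries only.

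Regulatory sequence next to the gene starts is shown because 7 of the 8 members with a RefSeq promoter (250 bases before to 50 after the start, assembly GRCm38.p6) shared one short word. That word is TGTGGT, the core bound by RUNX factors, which work in NK and CD8 T cells; on the other strand it reads ACCACA. It occurred, on either strand, in 16.8% of all 32851 promoters of the same length. Eomes was the member without it, and Klrd1 and Ccl5 were not in the promoter table. The window around the match nearest the start lay at chr13:113101006-113101051 for Gzma, chr14:56262343-56262388 for Gzmb and chr10:61297686-61297731 for Prf1. For the receptors it lay at chr6:128788705-128788750 for Klrb1c, chr6:129623968-129624013 for Klrk1 and chr7:4337654-4337699 for Ncr1, and for Nkg7 at chr7:43437035-43437080. These windows of 46 bases are printed 5′ to 3′ on the strand of the gene, from the reference genome and not from BALB/c reads, with the RUNX word in capitals:
Gzma: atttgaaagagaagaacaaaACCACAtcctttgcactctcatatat
Gzmb: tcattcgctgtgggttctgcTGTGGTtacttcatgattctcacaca
Prf1: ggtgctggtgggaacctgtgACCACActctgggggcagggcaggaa
Klrb1c: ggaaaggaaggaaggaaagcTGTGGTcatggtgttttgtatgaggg
Klrk1: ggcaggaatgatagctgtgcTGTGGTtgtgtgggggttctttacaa
Ncr1: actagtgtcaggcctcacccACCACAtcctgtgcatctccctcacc
Nkg7: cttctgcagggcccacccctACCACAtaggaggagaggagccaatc

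Counted from the RefSeq start, the first base of these matches lay between position -130 in Prf1 and position -34 in Gzmb. RefSeq starts can differ from the gene limits printed below, which are those of GENCODE, so these positions hold for RefSeq only. The Gzmb promoter, chr14:56262285-56262584, lies wholly outside the GENCODE gene, which ends at 56262260. The Nkg7 window spans the GENCODE start, 43437073. Other words searched were the T-box word TCACAC, in 3 of the 8 promoters against 14.5% of all promoters, the ETS word AGGAAG, in 3 of 8 against 35.4%, and TATAAA, in 0 of 8 against 13.6%. The AP-1 word TGANTCA and the STAT word TTCNNNGAA were each in 2 of 8, against 7.81% and 8.3%, the NF-kB word GGGANTTTC in 1 of 8 against 1.11%, and the interferon-response word GAAANNGAA in 3 of 8 against 8.56%. Both strands were searched for every word. A match describes the letters in this window and says nothing of whether a factor was bound.

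Some facts of the libraries bear on everything below. Depth, estimated from the smallest steps between low values, was about 15200000 reads for OVA+PM10, 13000000 for PM10 and 20700000 for control, so that 1 read in a transcript of 1 kilobase was worth 0.0658, 0.077 and 0.0483 FPKM. The summed FPKM was 855739 in OVA+PM10, 1293180 in PM10 and 546315 in control. Ratios to control also followed transcript length across all genes, with the shortest transcripts highest in PM10. The control library held squamous epithelium and skeletal muscle genes that the others nearly lacked: 13 squamous genes summed to 15.5 FPKM in OVA+PM10, 8.33 in PM10 and 6298 in control, and 15 skeletal muscle genes to 40.7, 28.4 and 5277. The summed level of 20 general leukocyte genes went the other way, at 2531 FPKM in OVA+PM10, 2292 in PM10 and 890.2 in control. Cd52 alone measured 1082, 984 and 147 FPKM. Between PM10 and control, 14 of the 20 had a log2 ratio above 0, and the median was 0.36. The part of these differences in the results below was not tested, beyond the values given with the length trend removed and with leukocyte genes set equal.

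Granzyme A (Gzma, chr13:113093825-113100981 on GRCm38, minus strand), a tryptase-like protease of NK and cytotoxic T cell granules, measured 70.5 FPKM in OVA+PM10, 374 in PM10 and 82.8 in control. It stood out in the PM10 library, at 4.52 times its control level, while the OVA+PM10 and control levels lay close together. Granzyme B (Gzmb, chr14:56258838-56262260, minus strand), which cuts after aspartate and starts the caspase death pathway, measured 4.10 FPKM in OVA+PM10, 12.9 in PM10 and 6.31 in control, the same order at a far lower level. In homogenised lung, a different number of NK or T cells and a different amount of RNA per cell cannot be told apart, here and for every gene below.

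Perforin (Prf1, chr10:61297833-61304680, plus strand), the pore former that granzymes need to enter a target, measured 2.29 FPKM in OVA+PM10, 1.22 in PM10 and 5.56 in control. It was the only member whose highest level was in the control library, and its lowest level was in the library where both granzymes were highest. These levels correspond to about 86 reads in OVA+PM10, 39 in PM10 and 285 in control. Nkg7 (chr7:43437073-43438249, plus strand), a membrane protein of cytotoxic granules that is needed for their release, measured 19.8 FPKM in OVA+PM10, 46.5 in PM10 and 19.4 in control, and so was high in PM10 alone.

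Among receptors, Klrd1 (chr6:129591782-129598775, plus strand) encodes CD94, which pairs with an NKG2 chain to read the non-classical MHC molecule Qa-1. It measured 5.42 FPKM in OVA+PM10, 13.2 in PM10 and 4.05 in control, with PM10 again the high library. Klrk1 (chr6:129610323-129623864, minus strand) encodes NKG2D, an activating receptor for stress-induced ligands. It measured 1.5 FPKM in OVA+PM10, 2.23 in PM10 and 2.13 in control, the most even of the 10 genes. These genes lie 11547 bases apart in the NK gene complex on chromosome 6. The level of Klrd1 per FPKM of Klrk1 was 3.61 in OVA+PM10, 5.94 in PM10 and 1.90 in control. Transcript length enters this proportion, since the longest transcripts have 919 bases for Klrd1 and 3259 for Klrk1. With the length trend removed, the log2 ratios of PM10 to control were 0.32 for Klrd1 and 0.02 for Klrk1. Those of OVA+PM10 to control were then -0.27 and -0.34.

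Klrb1c (chr6:128778485-128789215, minus strand), the receptor that carries the NK1.1 epitope in C57BL/6 mice, measured 1.19 FPKM in OVA+PM10, 3.35 in PM10 and 2.25 in control. About 47, 114 and 122 reads stand behind these values. Closely related Klrb1 genes, a predicted gene that shares 8931 of its bases on the same strand, and the difference between BALB/c and the C57BL/6 reference in this complex make its level uncertain. Ncr1 (chr7:4337724-4345164, plus strand) encodes NKp46, an activating receptor found on nearly all mouse NK cells and on some innate lymphoid cells. It measured 5.49 FPKM in OVA+PM10, 17.4 in PM10 and 9.31 in control, and it was low in OVA+PM10 and high in PM10 as Gzmb was.

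Ccl5 (chr11:83525778-83530518, minus strand), a chemokine that draws T cells, monocytes and eosinophils and is stored by cytotoxic cells, measured 98.1 FPKM in OVA+PM10, 226 in PM10 and 102 in control. Its OVA+PM10 and control levels were nearly equal. Eomes (chr9:118478212-118486132, plus strand), the T-box transcription factor, measured 1.39 FPKM in OVA+PM10, 2.42 in PM10 and 1.26 in control, from about 75, 112 and 93 reads. An antisense gene shares 574 bases with it, and whether strand was used in counting is not known.

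**Figure D1:**
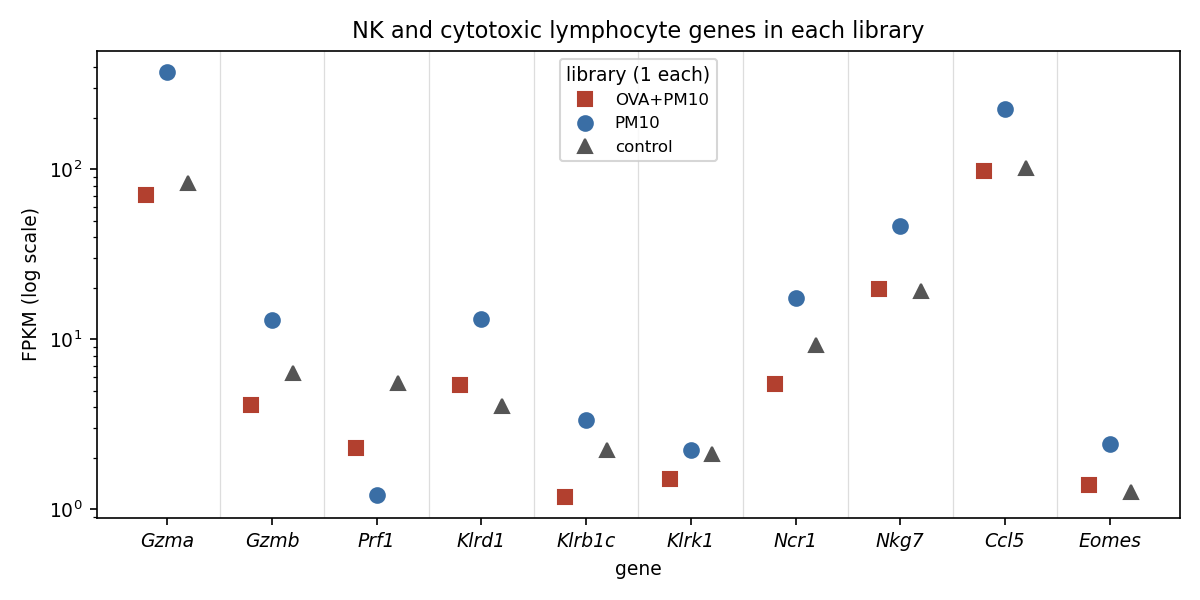
Level of each of the 10 genes in FPKM (log axis) in the OVA+PM10, PM10 and control libraries, 1 point per library. The PM10 point is the highest for 9 genes, and Prf1 is the exception, with 1.22 FPKM in PM10 and 5.56 in control.

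PM10 was thus the highest of the 3 libraries for 9 of the 10 genes, where 38.1% of all 14145 genes with at least 1 FPKM in a library were highest in PM10. OVA+PM10 was the lowest for 6 of them, control for 3 and PM10 for Prf1. Gzma and Ccl5 made up 80.4% of the summed level of the set in OVA+PM10, 85.8% in PM10 and 78.7% in control. The sum over all 10 was 209.7 FPKM in OVA+PM10, 700.1 in PM10 and 235 in control, and without Gzma and Ccl5 it was 41.2, 99.3 and 50.2. Which neighbours in these orders differ beyond the spread between mice cannot be said from 1 library per group.

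The first comparison set lungs given particles alone against control lungs. Between PM10 and control, 4 of the 10 genes were at least 2-fold higher in PM10 on the log2 scale of FPKM + 1, which understates the difference of low genes. They were Gzma, Klrd1, Nkg7 and Ccl5, with log2 ratios of 2.16, 1.5, 1.22 and 1.14. Of the 13693 genes that passed the minimum level, 13.6% were as much higher. Perforin was at least 2-fold lower, with a log2 ratio of -1.57, as were 13.9% of all genes. Between these stood Gzmb at 0.93, Ncr1 at 0.84, Eomes at 0.60, Klrb1c at 0.42 and Klrk1 at 0.04. Ratios above 0 were found for 9 of the 10, against 50.9% of all genes, and a ratio below 0 for 1, against 49.1%. The median was 0.89 for the set and 0.02 for all genes.

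Transcript length moved with this result. The 4 genes called higher were the 4 members whose longest transcript is under 1000 bases: 668 for Ccl5, 881 for Nkg7, 919 for Klrd1 and 996 for Gzma. Of 10 equal classes of genes by length, the shortest ran from 121 to 1277 bases; in it 53.9% were at least 2-fold higher in PM10 and the median log2 ratio was 1.08. Measured against the median of genes of like length, Gzma was still 1.10 above, Klrd1 0.32 above, Nkg7 level at 0.00 and Ccl5 0.19 below (-0.19). Of these 4, Gzma alone was still past 2-fold. Eomes stood at 0.67, the next highest after Gzma, and Klrb1c, Gzmb, Ncr1 and Klrk1 at 0.26, 0.25, 0.22 and 0.02. Perforin, with a transcript of 2474 bases, stood further below on this scale, at -1.79. The set's median log2 ratio was 0.23 with the trend removed.

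Members of like length can be set side by side. Gzma and Klrd1, of 996 and 919 bases, had ratios of 2.16 and 1.5 between PM10 and control. Gzmb and Ncr1, of 1436 and 1495 bases, had nearly the same ratios, 0.93 and 0.84. Prf1 and Klrb1c, of 2474 and 2623 bases, lay on opposite sides of 0, at -1.57 and 0.42. Klrk1 and Eomes, of 3259 and 3560 bases, had ratios of 0.04 and 0.60.

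**Figure D2:**
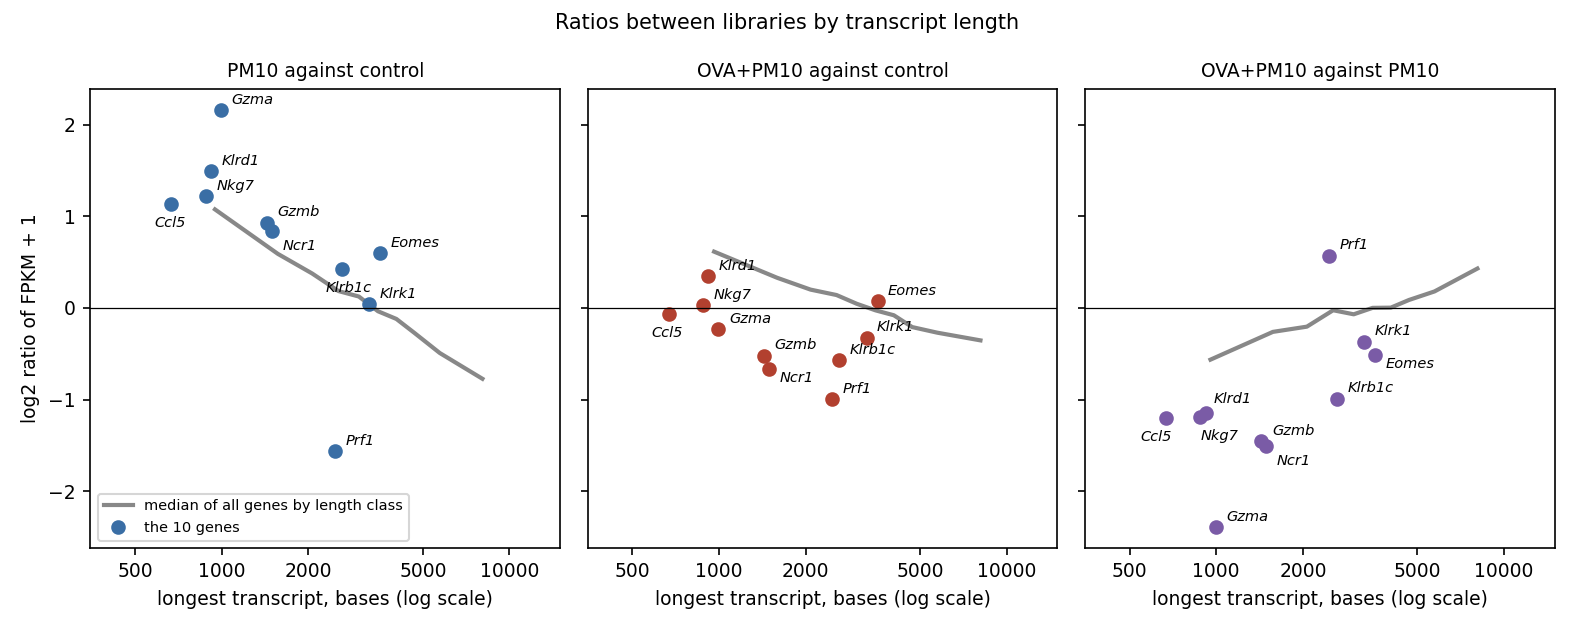
Log2 ratio of FPKM + 1 against longest transcript length (log axis, bases) for the 10 genes (labelled points) in the comparisons PM10 against control, OVA+PM10 against control and OVA+PM10 against PM10; the grey line joins medians of all genes in 10 length classes. In PM10 against control the line stands at 1.08 in the shortest class, with Gzma above it at 2.16, and Prf1 lies below it at -1.57.

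The second comparison set lungs given allergen and particles against the same control library, which both comparisons therefore share. None of the 10 genes was at least 2-fold higher in OVA+PM10, where 9.95% of all 13877 genes were, and none was at least 2-fold lower, where 8.68% were. Perforin came closest, at 2.29 FPKM in OVA+PM10 against 5.56 in control. Its log2 ratio of FPKM + 1 was -0.995, just short of 2-fold, although its FPKM alone stood at 0.41 times the control level. The NK receptors Ncr1 and Klrb1c were next, at -0.67 and -0.57, followed by Gzmb at -0.52. Klrk1 stood at -0.32, Gzma at -0.23 and Ccl5 at -0.06. Klrd1, Eomes and Nkg7 were on the other side of 0, at 0.35, 0.08 and 0.03. Ratios above 0 numbered 3 of 10, where 49.9% of all genes were above 0, and those below 0 numbered 7, where 50.1% were. The median of the set was -0.28.

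With the length trend removed, 9 of these 10 ratios were below 0, with Eomes the exception at 0.11, and the median was -0.73. Perforin (-1.18) and Ncr1 (-1.04) were then past 2-fold lower, 2 of 10 where 8.08% of all genes were, and Gzmb stood at -0.96 and Gzma at -0.82. Of the 20 general leukocyte genes, 8 were at least 2-fold higher in OVA+PM10 than in control and 0 lower, with a median log2 ratio of 0.90. With those leukocyte genes set equal between libraries (a factor of 1.89 for OVA+PM10 and 1.30 for PM10 over control), all 10 ratios of OVA+PM10 to control were below 0, with a median of -0.98. All genes moved with this scaling, to a median of -0.75. Gzma, Gzmb, Prf1 and Ncr1 were then at least 2-fold lower, at -1.13, -1.20, -1.57 and -1.40, or 4 of 10 where 32.8% of all genes were, a share near the background. On the same scale, between PM10 and control, where the median of all genes was -0.30, Gzma stood at 1.79, Klrd1 at 1.15, Nkg7 at 0.86, Ccl5 at 0.76, Prf1 at -1.76 and Klrk1 at -0.20.

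The third comparison set the 2 exposed libraries against each other. Between OVA+PM10 and PM10, 6 of the 10 genes were at least 2-fold lower in OVA+PM10, where 9.0% of all 13556 genes were. They were Gzma at -2.39, Ncr1 at -1.51, Gzmb at -1.45, Ccl5 at -1.20, Nkg7 at -1.19 and Klrd1 at -1.15. On the scale of FPKM + 1, Klrb1c was just short of this, at -0.99, although its FPKM alone stood at 0.36 times the PM10 level. Eomes stood at -0.52 and Klrk1 at -0.37. None was at least 2-fold higher, where 11.8% of all genes were, and perforin alone was above 0, at 0.57, so that 1 of 10 was above 0, against 48.4% of all genes, and 9 were below, against 51.6%. The set's median was -1.17, and that of all genes was -0.03.

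Transcript length moved with this result too: in the shortest length class 26.0% of genes were at least 2-fold lower, and the class median was -0.56. With the trend removed, Gzma (-1.84), Ncr1 (-1.24) and Gzmb (-1.17) were at least 2-fold lower, 3 of 10 where 6.41% of all genes were, and Klrb1c stood at -0.99. Klrd1, Nkg7 and Ccl5 were then at -0.55, -0.57 and -0.53. With leukocyte genes set equal, the median of all genes was -0.50 and 23.8% were at least 2-fold lower; Gzma stood at -2.92, Ncr1 at -1.89, Gzmb at -1.79 and perforin at 0.19.

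**Figure D3:**
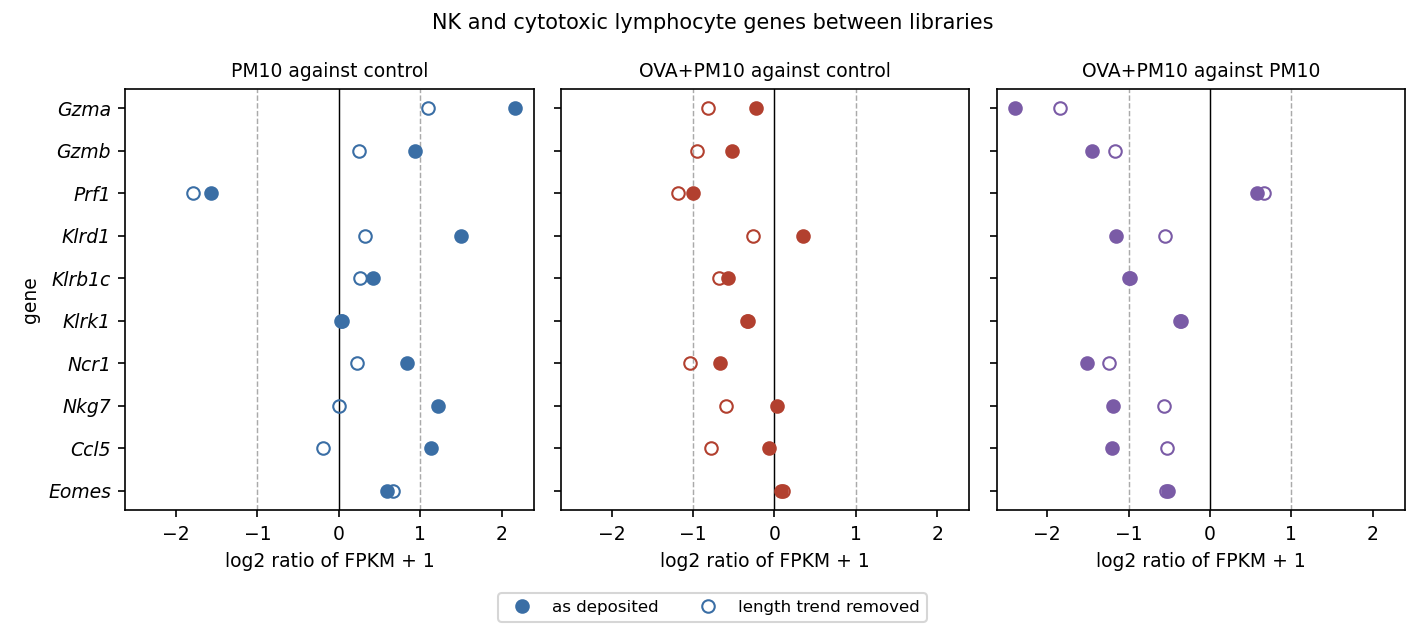
Log2 ratio of FPKM + 1 for each of the 10 genes in the 3 comparisons, as deposited (filled points) and after the trend over transcript length was removed (open points); dashed lines mark 2-fold. In PM10 against control, Gzma stands at 2.16 filled and 1.10 open and Ccl5 at 1.14 and -0.19, and Prf1 is below 0 in both comparisons with control.

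Scaling changed the directions against control in part. With every library scaled to the same summed FPKM, the log2 ratio of PM10 to control was above 0 for Gzma (0.93), Klrd1 (0.41) and Nkg7 (0.02) only. That scaling also moved the median of all genes to -1.02, and every member but Prf1 (-2.46) stood above this median. Directions flipped in the other comparisons too. In OVA+PM10 against control with equal sums, Klrd1, Nkg7 and Eomes stood at -0.19, -0.59 and -0.32, so that all 10 genes were below 0, where the median of all genes was -0.57. Klrk1 stood at 0.02 in OVA+PM10 against PM10 with equal sums, and Ccl5 at 0.11 in OVA+PM10 against control with 151 abundant and other-tissue genes left out. Equal sums turned the 1869 higher and 1907 lower genes of PM10 against control into 249 and 7226. For OVA+PM10 against control, 1381 higher and 1204 lower genes became 617 and 3459, and for OVA+PM10 against PM10, 1604 and 1220 became 3211 and 321. With leukocyte genes set equal the same splits were 1061 and 2820, 302 and 4428, and 620 and 3029. With the 151 genes left out they were 3724 and 1359, 1862 and 1010, and 1412 and 2380.

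Proportions between members within a library need no scaling between libraries, although transcript length enters them. Gzma stood at 17.2 times the FPKM of Gzmb in OVA+PM10, 28.9 times in PM10 and 13.1 times in control. Relative to perforin, Gzma was at 30.8 in OVA+PM10, 308 in PM10 and 14.9 in control, and Gzmb at 1.79, 10.7 and 1.13. Both granzymes were highest relative to perforin in the PM10 library. Relative to the pan-leukocyte gene Ptprc (CD45), Ncr1 stood at 0.177 in OVA+PM10, 0.874 in PM10 and 0.320 in control. Relative to the T cell gene Cd3e it stood at 0.344, 3.66 and 0.784, but relative to Cd3g at 0.148, 0.323 and 0.602. OVA+PM10 was the lowest for all 3 of these genes, whereas PM10 was above control for Ptprc and Cd3e and below it for Cd3g. Ptprc itself had a log2 ratio of -0.52 between PM10 and control, against a median of 0.36 for the 20 leukocyte genes.

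The remaining genes of the cytotoxic pathway were read from gene lists, each described by how many of its tested genes, those that passed the minimum level, were at least 2-fold higher or lower, beside the shares of all genes given above. Of 8 other granzymes, Gzmk, a granzyme of CD8 T cells, measured 1.94 FPKM in OVA+PM10, 3.38 in PM10 and 0.97 in control, and was the only one tested. Gzmm was at 0.81, 0.57 and 0.44 FPKM, and Gzmd, Gzme, Gzmf, Gzmg and Gzmn were listed at 0 in all 3 libraries. Among 20 genes of granule maturation and release, 5 were higher and 1 lower in PM10 than in control. The one lower was Lyst, the lysosomal trafficking gene mutated in beige mice, at 3.08 FPKM in OVA+PM10, 0.13 in PM10 and 3.54 in control. Its longest transcript has 13181 bases, and its log2 ratio of -2.01 became -1.03 with the length trend removed. Serglycin (Srgn), the proteoglycan that packs granzymes, measured 287, 350.3 and 131 FPKM, but many leukocytes make it. Serpinb9, an inhibitor of granzyme B, measured 23.7 FPKM in OVA+PM10, 40.1 in PM10 and 39.3 in control.

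Partners of the receptors covered the NK gene complex and the signalling chains. Klrc1 encodes NKG2A, the inhibitory partner of Klrd1, and measured 0.99 FPKM in OVA+PM10, 4.62 in PM10 and 1.92 in control. Its neighbour Klre1 measured 1.35, 5.02 and 1.61, and Klra3, of the Ly49 family, 4.74, 18.6 and 4.82. These receptor genes shared the order of most members, with PM10 high, but Ly49 genes differ in number between BALB/c and the reference and are closely similar to each other, so their values are uncertain. Of 14 inhibitory receptors tested, 3 were at least 2-fold higher in PM10 than in control and 0 lower, with a median log2 ratio of 0.43. OVA+PM10 gave a like count against control, 3 higher and 0 lower of 13 tested, at a median of 0.46. Lilrb4a was among the higher genes in both, at 37.2 FPKM in OVA+PM10, 39.1 in PM10 and 8.87 in control. Whether its RNA came from NK cells or from other leukocytes was not tested. Tigit and Pdcd1, which T cells also carry, were instead high in OVA+PM10: Tigit measured 9.11 FPKM in OVA+PM10, 0.27 in PM10 and 1.33 in control, and Pdcd1 3.41, 0.99 and 0.45.

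Of 12 activating and costimulatory receptors tested, 3 were at least 2-fold higher in PM10 than in control and 0 lower. Their median was 0.77, or 0.20 with the length trend removed. In OVA+PM10 against control, 3 of 11 tested were higher and 0 lower, at a median of 0.15, or 0.27 with the trend removed. Fcgr3 was among the higher genes in both, at 152 FPKM in OVA+PM10, 171 in PM10 and 40.7 in control. The adaptor Hcst (DAP10), through which NKG2D signals, measured 59.2 FPKM in OVA+PM10, 128 in PM10 and 14.8 in control, while its receptor Klrk1 was nearly even. Transcript length enters this contrast, since the longest transcripts have 442 bases for Hcst and 3259 for Klrk1. The log2 ratio of PM10 to control was 3.03 for Hcst. With the length trend removed it was 1.67, against 0.02 for Klrk1. Tyrobp (DAP12), which macrophages express strongly, measured 397, 454 and 119 FPKM. As for ligands, Clec2d, bound by an inhibitory receptor of the Klrb1 family, measured 27.0 FPKM in OVA+PM10, 109 in PM10 and 37.1 in control. Of the NKG2D ligands, Raet1e was listed at 0 in all 3 libraries and H60b was at 0.32 FPKM in OVA+PM10, 0 in PM10 and 0.47 in control.

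Of 6 effector cytokines and chemokines tested, 4 were at least 2-fold higher in PM10 than in control and 0 lower, at a median log2 ratio of 1.36, or 0.47 with the length trend removed. The 4 were Ccl3, Ccl4, Csf2 and Xcl1, with longest transcripts of 523 to 800 bases. In the shortest length class, which holds them, 53.9% of all genes were as much higher. With the length trend removed, they stood at 2.18, 1.19, 0.33 and -0.25. Ccl3, a chemokine that activated NK cells share with macrophages, measured 4.40 FPKM in OVA+PM10, 26.6 in PM10 and 1.5 in control, and Ccl4 3.32, 7.54 and 0.49. Xcl1, made mainly by NK and CD8 T cells, measured 3.30, 4.39 and 1.51. Interferon gamma (Ifng), the signature cytokine of NK cells, was near 1 FPKM in both exposed libraries, at 1.06 in OVA+PM10 and 1.09 in PM10, and at 0.48 in control. Its log2 ratio of PM10 to control was 0.50, or -0.36 with the length trend removed. The death ligand Fasl stayed below 1 FPKM throughout, at 0.48, 0.71 and 0.98.

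Transcription factors of these lymphocytes were set beside Eomes. Of 17 tested between PM10 and control, 0 were higher and 4 lower, with a median log2 ratio of -0.23, or -0.20 with the length trend removed. The 4 were Tox2, Irf2, Ikzf3 and Smad3. With the trend removed they stood at -2.21, -1.53, -0.90 and -0.62, so that Ikzf3 and Smad3 were no longer past 2-fold. Tbx21 (T-bet), the other T-box factor of these cells, measured 0.55 FPKM in OVA+PM10, 0.87 in PM10 and 0.96 in control. Il15, the survival cytokine of NK cells, measured 2.05 FPKM in OVA+PM10, 4.52 in PM10 and 2.71 in control, and Il2rb, a chain of its receptor, 7.78, 5.08 and 7.17. Il18, which primes NK cells for interferon gamma, was low in OVA+PM10, at 7.05 FPKM, against 28.1 in PM10 and 30.9 in control.

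Ccr1 and Ccr3, receptors that bind Ccl5 among other chemokines, had another order of levels than Ccl5. Ccr1 measured 10.4 FPKM in OVA+PM10, 8.18 in PM10 and 3.28 in control, and Ccr3, carried by eosinophils, 7.86, 0.13 and 1.59. Both were highest in OVA+PM10, where Ccl5 itself was close to its control level.

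Several members are also made by T cells, whose genes gave no single order. Cd8a measured 0.92 FPKM in OVA+PM10, 3.12 in PM10 and 1.79 in control, the same order as Gzma. Cd8b1 shared this order, at 3.855, 8.78 and 4.05 FPKM. Ly6c2 and Itgae, also listed for CD8 T cells, were instead highest in OVA+PM10. They measured 165 and 9.01 FPKM there, 110 and 3.35 in PM10 and 62.8 and 4.46 in control. Of 5 CD8 T cell genes tested, 1 was higher than control and 0 lower in PM10, and the same counts held in OVA+PM10. The CD3 chains disagreed among themselves: Cd3d measured 24.3 FPKM in OVA+PM10, 46.9 in PM10 and 9.04 in control, but Cd3e 16.0, 4.76 and 11.9. Of 16 T cell genes tested, 3 were higher and 1 lower in PM10 than in control, at a median log2 ratio of 0.08, and 2 higher and 1 lower in OVA+PM10, at 0.37. The summed T cell level was 151 FPKM in OVA+PM10, 177 in PM10 and 101 in control, against 209.7, 700.1 and 235 for the 10 NK and cytotoxic genes. Without Gzma and Ccl5 the latter sums were 41.2, 99.3 and 50.2. The share of each gene from NK cells and from T cells was not tested. Glycam1, made by lymph node vessels, measured 0.71 FPKM in OVA+PM10 and 134 in control and was listed at 0 in PM10. Of 5 lymph node and lymphoid stroma genes tested, it alone was at least 2-fold lower in OVA+PM10 than in control. In PM10, 3 of the 5 were lower. Ccl21a measured 53.8 FPKM in OVA+PM10, 33.3 in PM10 and 54.0 in control, and Cxcl13 39.7, 2.92 and 30.3. The part of lymph node tissue in the control levels was not tested.

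**Figure D4:**
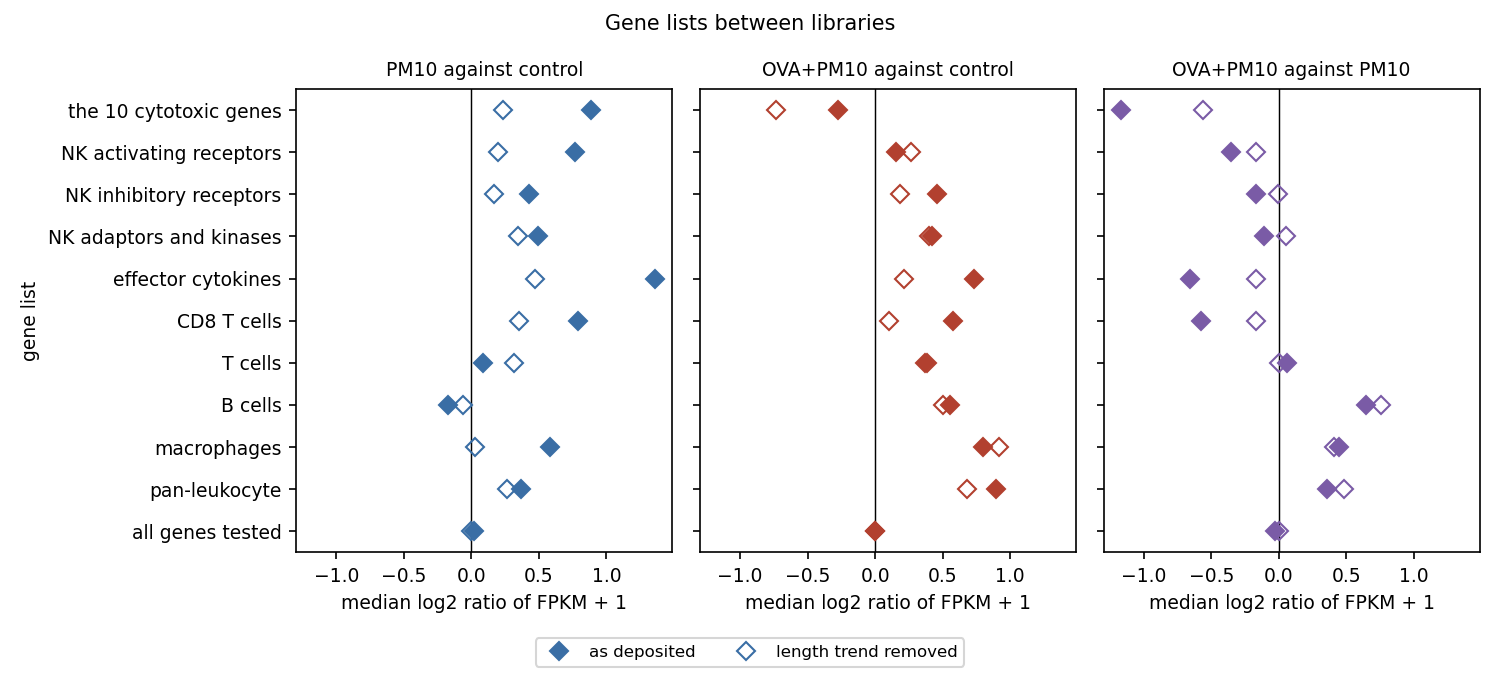
Median log2 ratio of FPKM + 1 for the 10 genes and for related gene lists in the 3 comparisons, as deposited (filled) and with the length trend removed (open). The 10 genes stand at 0.89, -0.28 and -1.17 as deposited and at 0.23, -0.73 and -0.56 with the trend removed.

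Genes whose pattern was most like that of a member were found by the distance between their log2 ratios of PM10 and OVA+PM10 to control, over 9985 genes with at least 5 FPKM in a library. Nearest to Gzma were Gng11, Cd209c, Cyp26b1, Clec1b and Ppy, at distances from 0.0472 to 0.256. Gng11, the nearest, measured 109.8 FPKM in OVA+PM10, 571 in PM10 and 130.5 in control. Nearest to perforin were Plxna1, Myh9, Dab2ip, Jph2 and Pdgfd, at 0.0330 to 0.0689, none of them a member or a granule gene of the lists. Nearest to the median of the set were Lonp2, Atp1b3, Rab33b, Akirin2 and Ccdc174. With only 3 libraries, such likeness rests on 2 ratios that share the control.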

How the data were processed

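RNA sequencing of mouse lung was available as 1 library each for OVA+PM10, PM10 and control. The authors deposited FPKM values for 23183 genes per library; the unit was inferred from the values, since no header names it. TopHat and the build mm10 were used, per the submitters' processing notes. The labels' protocols name a strand-preserving kit. For the counting program, its annotation, its use of strand and its treatment of multi-mapping reads, the sources used here give nothing. The plan foresaw counts or normalized values, and the form for normalized values was used.

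Computed here were log2 ratios of FPKM with a pseudocount of 1. A gene was tested where the higher library had at least 1 FPKM, and called at 2-fold. Depth was estimated from the smallest steps between low values and is approximate. Groups were taken from the agent label. Replicates were absent, so no p-value, interval or standard deviation was given, and in place of replicate spread a value that moved by less than 1.5-fold counted as unmoved. The 10 genes and the 25 lists beside them were chosen with earlier results of these data known. Named genes were the members, up to 4 tested genes per list with the largest ratios and a set of genes of NK and T cell biology. Gzmd, Gzme, Gzmf, Gzmg and Gzmn were named outside that rule after their values were seen. Coordinates and longest transcripts were those of GENCODE M21 (GRCm38, another name of mm10), with 22148 symbols matched (95.5%). The length trend was the running median of 501 neighbours in length. Promoters were RefSeq's, on GRCm38.p6, for 8 members; no protein sequences were used. Alternatives were other pseudocounts, filters, thresholds and scalings, the length trend and the omission of 151 abundant or other-tissue genes. The code, in Python 3.11.15 with numpy 2.4.6, pandas 2.3.3 and matplotlib 3.10.9, was tested on simulated data.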

Additional observations from a re-analysis of the deposited data

How the results depend on the processing

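No paired analysis was possible because each group had 1 library, and no library could be left out. Of 210 single-gene ratios under the 7 alternatives that can change them, 174 moved by less than 1.5-fold and the rest further, and 18 changed sign, 10 of them with equal summed FPKM. Of those 18, 2 were past 2-fold as reported: Ccl5 in PM10 against control, at -0.10 with equal sums and -0.19 with the length trend removed. For PM10 against control, the count of genes called higher, 4, became 7 at 1.5-fold and 1 at 4-fold, where 26.3% and 2.21% of all genes were higher. It became 0 with equal sums, 2 with leukocyte genes set equal, 1 with the length trend removed and 7 with abundant and other-tissue genes left out. Under these last 4, 1.76%, 7.84%, 7.43% and 26.3% of all genes were higher. The count of 1 lower became 0 with a pseudocount of 5 and 0 at 4-fold, where 5.47% and 3.83% of all genes were lower. The median was -0.19 with equal sums and 0.23 with the length trend removed. For OVA+PM10 against control, the count of 0 lower became 1 with a pseudocount of 0.25, 2 at 1.5-fold and 1 with median-ratio scaling. Of all genes, 11%, 17.7% and 8.84% were lower under these. The count became 4 with equal sums, 4 with leukocyte genes set equal and 2 with the length trend removed. Under these last 3, 24.1%, 32.8% and 8.08% of all genes were lower. The median was -0.98 with leukocyte genes set equal. For OVA+PM10 against PM10, the count of 6 lower became 1 at 4-fold, 1 with equal sums and 3 with the length trend removed. Under these, 0.819%, 2.4% and 6.41% of all genes were lower. The median was -0.56 with the trend removed. Equal sums moved the median of all genes to -1.02, -0.57 and 0.48 in the 3 comparisons, leukocyte genes set equal to -0.30, -0.75 and -0.50, and the omission of genes to 0.42, 0.15 and -0.28. The counts at other thresholds follow from the thresholds; otherwise the cause was not tested. Levels near 1 FPKM, as for Prf1, Klrb1c and Eomes, rest on few reads.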
